A study of Mus musculus with 4 samples.

Results

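The spots described here are the macrophage-rich spots of mouse ovary sections, 289 of the 4134 spots that held at least 1000 counted molecules (UMIs). Each spot was scored by its summed UMIs of C1qa, C1qb, C1qc, Lyz2, Cd68 and Csf1r per 10000 UMIs, and the top 7% of spots over all sections together were taken as macrophage-rich. The remaining 3845 spots are called other spots. A further 57 of the 4191 spots in the count tables had fewer UMIs and were left out.

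The sections came from outbred CD-1 females that were aged (15 to 16 months) or young (3 to 4 months), with 4 animals per age and 1 frozen section of 10 µm from each. RNA was caught with the Visium assay, in which transcripts leaving a section bind to an array of barcoded spots, each covering several cells. Every one of the 4 capture areas held 1 aged and 1 young section, and sections are numbered here by capture area. The stage of the oestrous cycle is not given in the sources used here, and neither age carried a transgene, deletion or drug treatment in the labels.

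Macrophages are the main phagocytes of the ovary. They clear dying granulosa cells of atretic follicles and the steroid-producing cells of regressing corpora lutea, and they are known to build up in the ovarian stroma with age, where some form multinucleated giant cells filled with lipid and pigment. Their products include the C1q subunits that start the classical complement pathway, lysozyme, lysosomal proteases, and MHC class II molecules that present peptides to T cells.

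Sections held 2777948 to 21619232 UMIs. Which section of an area was aged was taken from the sides named in the labels, and in area 3 the summed level of oocyte genes in other spots was 472 CPM (UMIs per 1000000 UMIs) in the aged section and 35.9 CPM in the young section, against 31.3 to 41.7 CPM in the other 3 aged sections and 191 to 565 CPM in the other 3 young sections. Aged section 3 also held only 2 macrophage-rich spots, so that it entered the shares but not the tests of genes, which used sections with at least 10 such spots. The shares, the rim distances and the counts of genes that passed are also given without area 3. Barcodes name array positions, and 1358 of them occur in 2 or more areas.

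The 6 genes of the score are given as a description, since they chose the spots. Lyz2, the lysozyme of macrophages, contributed 59.3% of the score's UMIs in macrophage-rich spots and 43.1% in other spots. Over the 7 sections with enough spots, Lyz2 ran from 1294 to 2983 CPM (median 1559) in macrophage-rich spots and from 169 to 399 CPM in other spots. C1qa, C1qb and C1qc, the 3 chains of complement C1q, had medians of 329.9, 438 and 348 CPM in macrophage-rich spots and 95.4, 129 and 95.5 CPM in other spots. Cd68, a lysosomal glycoprotein of phagocytes, had a median of 143 CPM against 26.5 CPM, and Csf1r, the receptor through which macrophages receive their survival signal, 81.2 CPM against 35.2 CPM. Each of the 6 genes was higher in macrophage-rich than in other spots in all 7 sections.

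The score had no gap at the cut. The lowest-scoring macrophage-rich spot stood at 19.63 UMIs per 10000 (4 score UMIs of 2038, young section 3) and the highest-scoring other spot at 19.62 (39 of 19874, young section 4). Within 10% of the cut lay 46 macrophage-rich spots above it and 75 other spots below it. The median score was 25.9 in macrophage-rich spots and 6.33 over all spots, and the highest, 182, belonged to a spot of aged section 2 with 510 score UMIs. Macrophage-rich spots held 5.04% of all UMIs and 21.6% of the score's UMIs, so that most macrophage transcripts lay outside them. In 21 of them the score rested on fewer than 10 UMIs.

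C1qc (chr4:136889804-136893065), C1qa (chr4:136895917-136898803) and C1qb (chr4:136880129-136886187) lie next to each other on the minus strand of build mm10, in the GENCODE annotation. RefSeq promoter windows of build GRCm38.p6 could be read for 4 of the genes scored, and the 250 bases upstream of the RefSeq start held the letters GAGGAA, on either strand, for C1qb, C1qc and Cd68 but not for Lyz2. GAGGAA is a core bound by ETS factors such as PU.1, the product of Spi1, which macrophages need for their development. The windows of C1qc and Lyz2 reach 151 and 49 bases into the gene as GENCODE annotates it and are not printed. The other 2 windows are shown as examples of promoters of genes that were scored. Their RefSeq starts lie upstream of the genes as GENCODE annotates them, and the bases just after these starts were not found in GENCODE transcripts. Both windows are on the minus strand and read 5′ to 3′, with the match (GAGGAA) in capitals.

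C1qb promoter, chr4:136886201-136886450: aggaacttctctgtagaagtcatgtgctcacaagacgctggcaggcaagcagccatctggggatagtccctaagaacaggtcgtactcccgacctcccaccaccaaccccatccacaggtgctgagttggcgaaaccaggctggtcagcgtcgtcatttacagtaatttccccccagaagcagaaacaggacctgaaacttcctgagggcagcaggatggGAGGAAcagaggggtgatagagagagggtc
Cd68 promoter, chr11:69666171-69666420: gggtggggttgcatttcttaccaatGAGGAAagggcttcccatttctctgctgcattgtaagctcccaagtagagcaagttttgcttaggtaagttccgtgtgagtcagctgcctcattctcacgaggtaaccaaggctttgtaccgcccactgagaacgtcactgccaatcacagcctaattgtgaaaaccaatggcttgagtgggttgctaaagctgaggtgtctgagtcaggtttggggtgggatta

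The match ended 24 bases before the RefSeq start of C1qb and 219 bases before that of Cd68. The letters occurred in 23.3% of all 32851 promoter windows, in 8 of 13 windows of the macrophage genes outside the score, in 7 of 19 windows of the lipid-laden macrophage genes, in 2 of 13 windows of the granulosa genes and in 1 of 8 windows of the stromal genes. These are matches of letters, and binding was not measured.

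Macrophage-rich spots made up 14.4, 11.7, 0.803 and 13.1% of the spots of aged sections 1 to 4, and 3.77, 7.26, 5.23 and 2.23% of the spots of young sections 1 to 4. The ages overlapped because of aged section 3, while the other 3 aged sections lay above every young section. The mean was 10.0 ± 6.23% in aged and 4.63 ± 2.14% in young sections (SD, n = 4 each), a difference of 5.37 percentage points that did not pass an exact two-sided permutation test (p = 0.171; the smallest p possible is 0.0286). Within areas, the difference between the aged and the young section was 10.6, 4.41, -4.43 and 10.9 percentage points, and an exact sign-flip test over the 4 areas gave p = 0.375, where 0.125 is the smallest possible.

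Without aged section 3 the shares were 13.1 ± 1.36% in aged (n = 3) and 4.63 ± 2.14% in young sections (n = 4), with an exact permutation p of 0.0571, the smallest that 3 against 4 allows. Without area 3 the difference was 8.64 percentage points (exact permutation p = 0.1, again the smallest possible). Aged macrophage-rich spots held a median of 8721 to 15178.5 UMIs by section and young ones 9072 to 24433. With every spot thinned to 1000 UMIs before scoring, the shares were 8.49 ± 5.71% in aged and 5.24 ± 2.01% in young sections (SD, n = 4 each; exact permutation p = 0.286). Over whole sections the 6 genes together made up 9.95, 11.9, 2.49 and 6.32 UMIs per 10000 in aged and 5.53, 8.73, 7.77 and 6.14 in young sections.

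**Figure D1:**
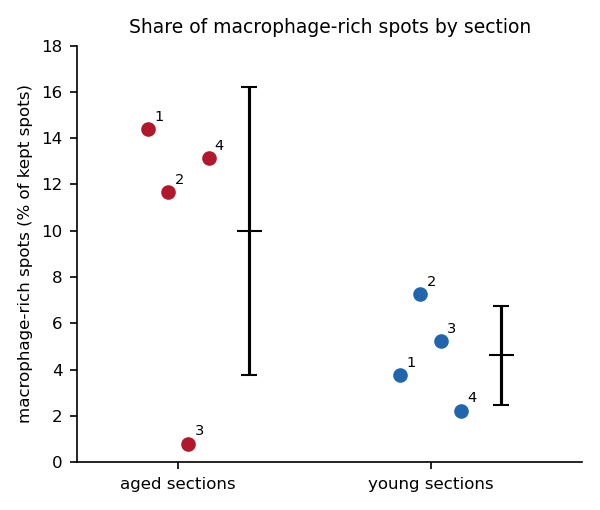
Share of spots that were macrophage-rich (percent of spots with at least 1000 UMIs) by section, aged left of young, with numbers marking the capture area and bars giving mean and SD (n = 4 each). Aged sections 1, 2 and 4 sit between 11.7 and 14.4%, above all young sections (2.23 to 7.26%), and aged section 3 sits at 0.803%.

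Most macrophage-rich spots lay in patches, but not in every section. In young sections 1 and 4, 12 of 20 and 11 of 17 were single spots, as were the 2 of aged section 3. Of the 289 spots, 217 touched at least 1 other macrophage-rich spot on the array, and the 112 patches included 72 single spots. The largest patch of each section held 19, 27, 1 and 23 spots in aged sections 1 to 4 and 3, 10, 6 and 2 spots in young sections 1 to 4. Of the neighbouring positions around macrophage-rich spots, 42.6, 42.6, 0 and 39.7% were macrophage-rich in aged sections and 10.4, 30.9, 30.1 and 5.88% in young sections. Where the top 7% were taken within each section instead, so that sections had like numbers for their size, the largest patch held 9, 23, 4 and 9 spots in aged and 6, 10, 7 and 8 spots in young sections. The share of macrophage-rich neighbours was then 29.8, 42.7, 17.6 and 27.97% in aged and 18.4, 31.5, 31.4 and 24.8% in young sections, and the ages overlapped.

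The largest patch of all, 27 spots in aged section 2, lay a median of 8 spot spacings from the rim of the section. Its spots held 4483 CPM of Lyz2 against 1713 CPM in the other 47 macrophage-rich spots of that section, and 252 against 146 CPM of Gpnmb, a glycoprotein of lipid-laden macrophages. The B and plasma cell genes ran the other way, at 1330 CPM in the patch and 8758 CPM in the other macrophage-rich spots. Gpnmb was lower in the largest patch of aged section 1 (140 CPM against 152 CPM in its other macrophage-rich spots). It was also lower in that of aged section 4 (69.9 against 121 CPM). Young section 2, whose largest patch held 10 spots, had 40.0 CPM of Gpnmb in the patch and 39.2 CPM in its other macrophage-rich spots. These patches were picked by the score, so that their values are descriptions of single sections.

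**Figure D2:**
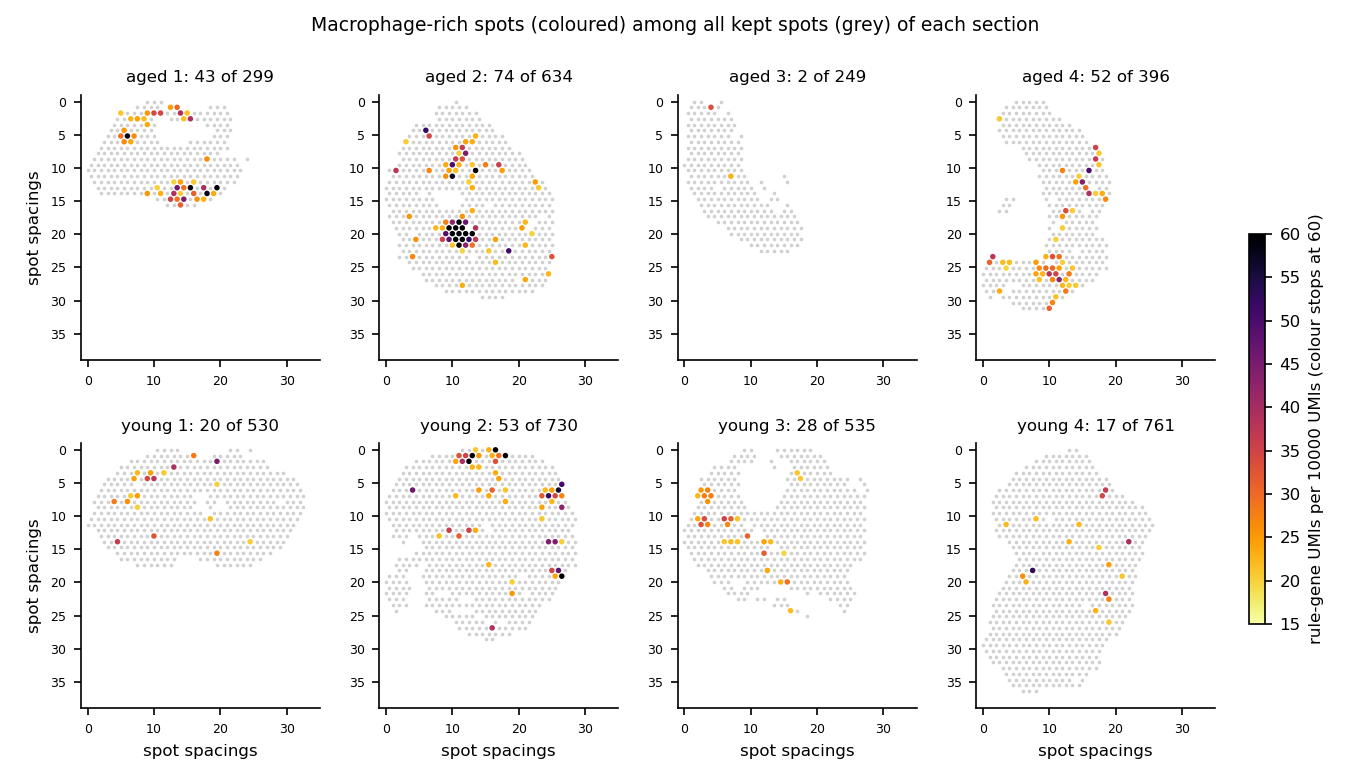
Position of macrophage-rich spots (coloured by score, in score UMIs per 10000 UMIs, with the colour stopping at 60) among other spots (grey) on the array, 1 panel per section, aged sections above young sections of the same capture area, axes in spot spacings. Aged sections 1, 2 and 4 show large patches of 19, 27 and 23 spots, and the largest patch in a young section holds 10 spots.

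Distance from the rim is given as a description. The median distance of macrophage-rich minus other spots was 0, 3.5 and 0 spacings in aged sections 1, 2 and 4 and 0, -1, 0 and 0 spacings in young sections 1 to 4 (mean 0.357, exact sign-flip test over 7 sections, p = 1). Since 5 of the 7 differences were 0, that exact test could not go below p = 0.5. The mean was 0.417 spacings without area 3 and -0.167 spacings without aged section 2. Spots on the rim itself made up 32.6, 5.41 and 34.6% of macrophage-rich spots in aged sections 1, 2 and 4 and 5, 20.8, 17.9 and 0% of those in young sections 1 to 4, against 33.2, 14.3 and 29.9% of other spots in the aged and 17.8, 19.9, 27.8 and 15.2% of other spots in the young sections. The rim share of macrophage-rich spots was the lower one in all these sections but aged section 4 and young section 2.

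The other genes were compared between macrophage-rich and other spots of the same section, on counts summed per section and class (edgeR quasi-likelihood test with the section as a block, Benjamini-Hochberg adjusted p under 0.05, 7 sections). The 6 score genes were left out. Since the spots were picked for macrophage transcripts, higher levels of further macrophage genes check the name of the spots and are no independent finding. Macrophage-rich spots held fewer UMIs than other spots, with medians of 13004 and 18367 UMIs over all sections, and the median was lower in each of the 7 sections. Of 11868 genes tested, 456 (3.84%) were higher and 338 (2.85%) lower in macrophage-rich spots, and the median log2 fold change of all genes was -0.02. Without area 3, which leaves out young section 3, 525 genes passed, of which 503 were among these. With no filter on low counts, 408 were higher and 777 lower, and with the score taken after thinning to 1000 UMIs, 613 passed, of which 432 were among these. A fold change covers both more cells of a type in a spot and more RNA per cell, which cannot be told apart. Fold changes use TMM scaling, so that they can differ a little from ratios of CPM.

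Macrophage genes outside the score rose together. Of 17 tested, 15 were higher and none lower (median log2 fold change 1.55). Ctss, the lysosomal protease cathepsin S, had 292, 265 and 209.7 CPM in macrophage-rich spots of aged sections 1, 2 and 4 and 96.4, 181, 249 and 278 CPM in those of young sections 1 to 4, against 69.6, 46.6 and 49.8 CPM in other spots of the aged and 22.1, 34.3, 51.0 and 40.1 CPM in other spots of the young sections. The classes did not overlap, and the log2 fold change was 2.30 ± 0.11 (SE; adjusted p = 1.75e-10).

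Mpeg1, a pore-forming protein of phagocytes, was at 168 ± 55.5 CPM in macrophage-rich and 37.1 ± 12.5 CPM in other spots (SD, n = 7 sections; log2 fold change 2.13). Tyrobp, the adaptor of myeloid receptors, was at 356 ± 76.3 against 109 ± 22.3 CPM (1.67), and Fcer1g, the Fc receptor gamma chain, at 273 ± 29.4 against 85.0 ± 13.2 CPM (1.64). Laptm5, Ms4a7 and Spi1, which encodes PU.1, rose by 1.82, 1.75 and 1.55 on the log2 scale, and Adgre1, the F4/80 antigen, by 1.13. Cd14, the co-receptor for lipopolysaccharide, was at 11.6 ± 7.96 CPM in macrophage-rich and 7.74 ± 1.89 CPM in other spots, which did not pass (adjusted p = 0.423). Macrophage-rich spots thus carried most macrophage markers tested beyond those that chose them. The 2 spots of aged section 3, which entered no test, held 198 CPM of Ctss and 165 CPM of Mpeg1 against 26.2 and 15.3 CPM in its other spots.

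Of 10 genes of tissue-resident macrophages tested, 4 were higher and none lower (median 0.74). Mrc1, the mannose receptor, was at 37.3 ± 10.5 CPM in macrophage-rich and 13.6 ± 3.92 CPM in other spots (log2 fold change 1.42). Selenop, which carries selenium and is made by resident macrophages, rose by 0.93, and Stab1, a scavenger receptor shared with sinusoidal endothelium, by 0.80. Maf, a transcription factor of resident macrophages, had 124 ± 35.2 CPM in macrophage-rich and 129 ± 43.2 CPM in other spots (adjusted p = 0.916). Cx3cr1, the fractalkine receptor, had 7.89 ± 6.63 and 5.74 ± 2.86 CPM (adjusted p = 0.841).

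Among genes that averaged at least 20 CPM and moved the same way in every section, the 2 largest fold changes belonged to genes of lipid-laden and matrix-degrading macrophages. Mmp12, the macrophage elastase (chr9:7344381-7369499), had 29.7, 24.6 and 38.4 CPM in macrophage-rich spots of aged sections 1, 2 and 4 and 32.1, 51.8, 96.6 and 174 CPM in those of young sections, against 5.19, 4.44 and 5.95 CPM in other spots of the aged and 2.61, 2.56, 13.3 and 8.41 CPM in other spots of the young sections. The log2 fold change was 3.32 ± 0.26 and every macrophage-rich value lay above every other-spot value. Gpnmb (chr6:49036546-49070929) had 146, 194 and 88.6 CPM in macrophage-rich spots of the aged and 40.2, 39.4, 292 and 141 CPM in those of the young sections, against 21.2, 15.9 and 12.7 CPM in other spots of the aged and 8.57, 4.72, 36.0 and 7.23 CPM in other spots of the young sections. It was higher in macrophage-rich spots within each section (3.13 ± 0.17; adjusted p = 5.87e-10), while its level differed between sections by several fold.

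Of the 17 lipid-laden macrophage genes tested, 13 were higher and none lower, with a median of 0.73. Apoe, the lipoprotein that carries cholesterol out of macrophages, was at 4981 ± 1666 CPM in macrophage-rich and 1319 ± 315 CPM in other spots (log2 fold change 1.85 ± 0.10). Trem2, a lipid-sensing receptor, rose by 2.10, Abcg1, a cholesterol exporter, by 1.62, Lgals3, the lectin galectin-3, by 0.85 and Plin2, which coats lipid droplets, by 0.73. Spp1, the secreted protein osteopontin, ran against the list at 345 ± 276 CPM in macrophage-rich and 656 ± 888 CPM in other spots, which did not pass (adjusted p = 0.0957). Against the spots that touch macrophage-rich spots it was lower (-0.57; adjusted p = 1.01e-05).

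Genes of the lysosome were higher at 10 of 19, with none lower and a median of 0.41. Ctsd and Ctsb, which encode the proteases cathepsin D and B, were at 1213 ± 352 and 1608 ± 217 CPM in macrophage-rich and 570.2 ± 108 and 860.4 ± 204 CPM in other spots (1.03 and 0.89). Atp6v0d2, a proton pump subunit of osteoclasts and macrophages, was among the 12 genes with the largest increase (2.68 ± 0.21). Lipa, the lysosomal acid lipase, rose by 0.72. Among genes of iron and haem handling, 4 of 11 were higher and none lower (median 0.22), including Slc11a1, the phagosomal metal transporter (1.36), transferrin (Trf, 1.30) and the iron exporter Slc40a1 (0.87).

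MHC class II genes were higher at 6 of 7 with a median of 1.34. Cd74, the invariant chain, had 1298, 654 and 1119 CPM in macrophage-rich spots of aged sections 1, 2 and 4 and 924, 894, 956 and 2157 CPM in those of young sections, against 473, 389.5 and 329.6 CPM in other spots of the aged and 192, 260.5, 316 and 502 CPM in other spots of the young sections. The classes did not overlap (log2 fold change 1.63 ± 0.13). H2-Aa, H2-Ab1 and H2-Eb1, chains of the class II molecules, rose by 1.44, 1.38 and 1.34. MHC class I genes, which most cells carry, were higher at 4 of 11 (median 0.38), with B2m, the light chain, at 0.37, the heavy chain H2-D1 at 0.69 and the immunoproteasome subunit Psmb8 at 0.60. H2 genes are alike in sequence and can share reads.

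All 6 genes of the phagocyte NADPH oxidase, which makes superoxide, were higher (median 1.31). Its membrane subunits Cybb and Cyba were at 32.1 ± 12.8 and 251 ± 44.7 CPM in macrophage-rich and 9.11 ± 2.91 and 117 ± 14.5 CPM in other spots, and Rac2, the small GTPase that switches it on, rose by 1.42. Fc and scavenger receptors were higher at 6 of 7 (median 1.25), including Fcgr3 (1.76), which binds IgG, and Msr1 (1.77), which takes up modified lipoprotein. Of 14 complement genes outside the score, 6 were higher (median 0.47): C3ar1, the receptor for C3a, by 2.28, C4b, whose near-copy C4a can share its reads, by 1.51, C5ar1 by 1.43 and properdin (Cfp) by 1.27 among them.

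Chemokines and cytokines were higher at 5 of 13 tested (median 0.51). Ccl6 and Ccl9, chemokines of mouse myeloid cells, rose by 2.51 and 2.16, Ccl8 by 1.49 and Cxcl16, a membrane-bound chemokine and scavenger receptor, by 0.88. Interferon response genes passed at 1 of 13 (median 0.23), which was Ifitm3 (0.39). Pan-leukocyte genes were higher at 9 of 10 (median 1.12), led among those named by Itgb2 (1.64), an integrin chain, and Ptprc (1.50), the CD45 phosphatase.

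**Figure D3:**
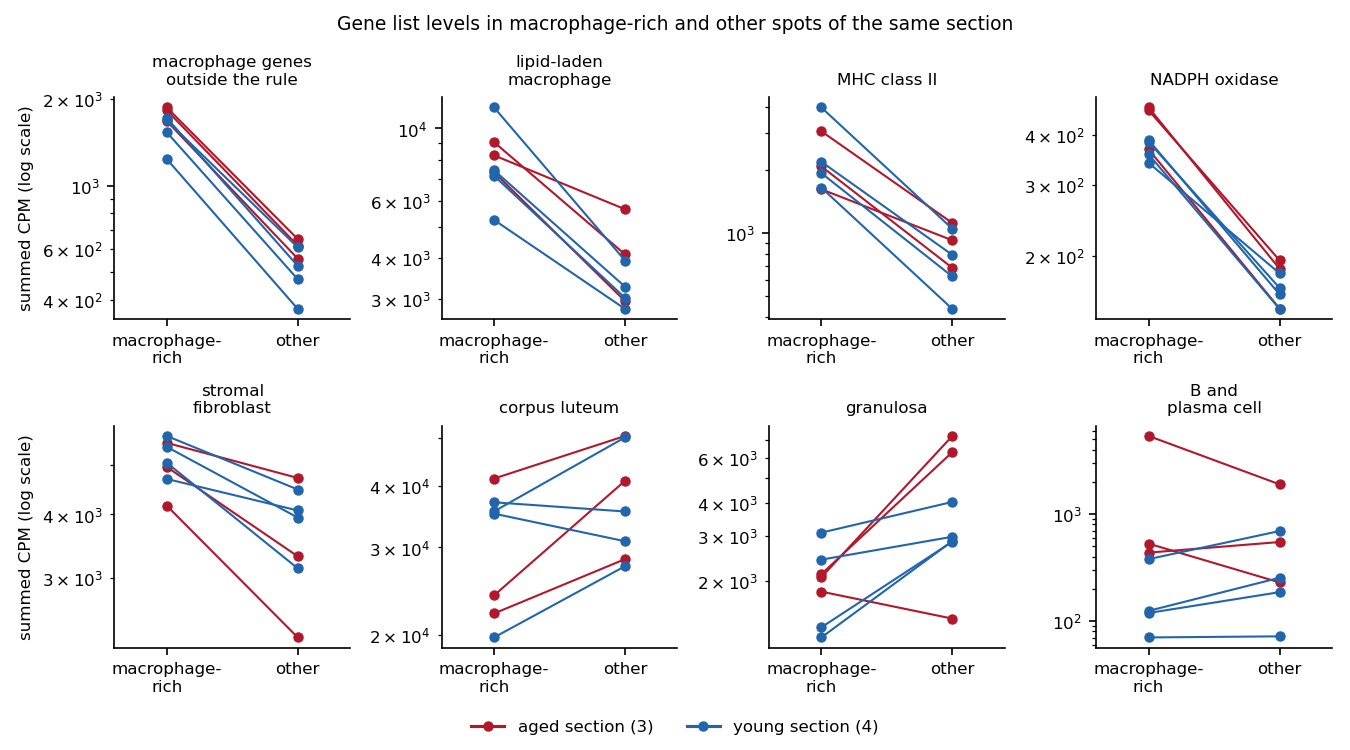
Summed level of 8 gene lists (CPM, log axis) per section, macrophage-rich spots left of other spots, with lines joining the classes of a section (red, 3 aged; blue, 4 young). Macrophage, lipid-laden, MHC class II and NADPH oxidase genes lie higher in macrophage-rich spots, with medians of 1688, 7446, 2084 and 384 CPM.

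Markers of other immune cells were checked in the same spots. None of 5 T and NK cell genes passed (median 0.60), while their summed level was higher in macrophage-rich spots in 7 of 7 sections, at 40.9 to 114 CPM in macrophage-rich and 24.9 to 63.8 CPM in other spots. Of the neutrophil, mast cell and dendritic cell genes, 1, 3 and 2 could be tested and none passed. Of 8 B and plasma cell genes, 3 were higher and 1 lower (median 0.43). The summed level of their list was higher in macrophage-rich spots in only 2 of 7 sections, with a median ratio to other spots of 0.796. Ighg2b, an immunoglobulin heavy chain, was at 105 ± 213 CPM in macrophage-rich and 24.7 ± 45.7 CPM in other spots and higher in only 4 of 7 sections (log2 fold change 1.68). Without aged section 2 it was 1.12 and did not pass (adjusted p = 0.128). Cd79b, a chain of the B cell receptor, was higher in 7 of 7 sections (9.07 ± 3.97 against 3.38 ± 0.774 CPM; 1.27), and Derl3, which plasma cells use to clear misfolded protein, was lower (-0.85).

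Genes of the stroma were higher too. Of 11 stromal fibroblast genes, 7 were higher and none lower, with a median of 0.40. Dcn, the collagen-binding proteoglycan decorin, had 668, 733 and 332 CPM in macrophage-rich spots of aged sections 1, 2 and 4 and 325, 226, 537 and 389 CPM in those of young sections, against 374, 488 and 161 CPM in other spots of the aged and 188, 211, 234 and 238 CPM in other spots of the young sections. It was higher in macrophage-rich spots in all 7 sections (0.71 ± 0.10), with levels that overlapped between sections. Pdgfra, the fibroblast receptor for platelet-derived growth factor, rose by 0.61 and Col1a1, a collagen chain, by 0.46. Of 4 adipocyte genes tested, Fabp4 and Car3 were higher (1.11 each); Fabp4 is also a gene of macrophages, and the fat hormones Adipoq and Lep had 0 UMIs in macrophage-rich spots.

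Granulosa cell genes were lower. Of 13 tested, 10 were lower and none higher, with a median of -1.12. Inhbb, a subunit of activin and inhibin, had 11.4, 43.8 and 50.2 CPM in macrophage-rich spots of aged sections 1, 2 and 4 and 28.1, 7.73, 15.3 and 11.1 CPM in those of young sections, against 327, 37.5 and 371 CPM in other spots of the aged and 95.8, 56.5, 169.6 and 24.6 CPM in other spots of the young sections. It was lower in 6 of 7 sections, aged section 2 being the exception (log2 fold change -2.38 ± 0.36). Cyp19a1, the aromatase that makes oestradiol, fell by 2.42 on the log2 scale, Fst, which binds activin, by 1.88, and Inhba by 1.82, while Nr5a2, a nuclear receptor of granulosa and luteal cells, was at 56.2 ± 17.4 against 143 ± 117 CPM (-1.19).

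Under the same conditions of level and direction, the gene with the largest decrease was Kcnj16, an inward rectifier potassium channel subunit, with 4.56, 1.07 and 23.6 CPM in macrophage-rich spots of aged sections 1, 2 and 4 and 4.02, 3.09, 17.8 and 3.70 CPM in those of young sections, against 74.6, 2.34 and 219 CPM in other spots of the aged and 25.2, 19.1, 53.3 and 8.94 CPM in other spots of the young sections (-2.85 ± 0.24). It was lower within every section. Others of the 8 largest decreases were Mro (-2.06), Bhmt, the betaine-homocysteine methyltransferase (-1.72), Ssu2 (-1.56), the amino acid transporter Slc38a3 (-1.54), the carbonic anhydrase Car14 (-1.47), the glycolytic enzyme Aldoc (-1.43) and the kinase Rps6ka2 (-1.42). Among the 12 largest increases not named so far were the leukocyte receptor Cd84 (2.39), the survival gene Bcl2a1b (2.21), the secreted phospholipase Pla2g2d (2.15) and the GTPase-activating protein Arhgap25 (2.14). Bcl2a1b has near-identical copies, so that its own value is uncertain.

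Corpus luteum genes were lower at 2 of 12 (median -0.43), which were Hsd17b7, an enzyme of sterol and steroid synthesis (-1.34), and the prolactin receptor Prlr (-0.72). Star, which moves cholesterol into mitochondria, was at 2506 ± 1274 CPM in macrophage-rich and 3333 ± 1778 CPM in other spots and did not pass (adjusted p = 0.0599). Of 6 oocyte genes 2 were lower, the growth factor Gdf9 (-1.86) and the zona protein Zp3 (-1.24). Of 10 cell cycle genes 3 were lower, with Mki67 at -1.28 and cyclin A2 (Ccna2) at -1.51. Haemoglobin genes Hba-a1 and Hbb-bs were lower (-0.97 and -0.69), and 6 of 11 mitochondrially encoded genes were lower, mt-Co1 at -0.49 among them. None of the theca (7), smooth muscle and pericyte (10), endothelial (11), lymphatic (5), surface epithelial (8) or oviduct (2) genes tested passed.

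Leaving out a single section ended 15 of the calls named here. Cyp19a1 was lost without aged section 1 (-1.61), Ighg2b and Ighg2c without aged section 2, Bhmt and Psmb8 without aged section 4, Adgre1 without young section 2, mt-Co1 without young section 3 and Ccl8 without young section 4. Gdf9 and Mki67 were lost without young section 1 or 2, and Zp3 without young section 1, 2 or 4. Ifitm3 (aged section 4, young section 1 or 3), Hbb-bs (aged section 1, young section 1, 2 or 4), Derl3 (aged section 4 or any young section) and Car3 (any section but aged section 2) rested on several sections. Each kept its direction.

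Macrophage-rich spots were also set against the spots that touch them, 735 spots over the 7 sections. Here 384 of 9823 genes passed, of which 322 had passed with the same direction against all other spots, 40.6% of those calls and 83.9% of these. Macrophage genes outside the score were higher at 15 of 15 tested, and lipid-laden genes at 13 of 17. Granulosa genes were then lower at 2 of 11, Inhbb among those that no longer passed (-0.42; adjusted p = 0.228), mitochondrially encoded genes at none, and corpus luteum genes at 9 of 12, including Star (-0.40; adjusted p = 8.67e-04).

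With distance, the summed macrophage genes outside the score had a median over sections of 1688 CPM in macrophage-rich spots, 772 CPM in spots 1 spacing away, 611 CPM at 2 spacings and 469 CPM at 3 or more. Lipid-laden macrophage genes stood at 7446, 4226, 3753 and 3058 CPM, and stromal genes at 5049.8, 4528, 4166 and 3512 CPM. The medians of granulosa genes ran the other way, at 2074, 2069.8, 2378 and 3479.8 CPM. In aged section 2, in contrast, granulosa genes were lower with distance (1825, 1751, 1562 and 1041 CPM). The corpus luteum genes had medians of 35112, 39773, 40143 and 31923 CPM with no order common to the sections.

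**Figure D4:**
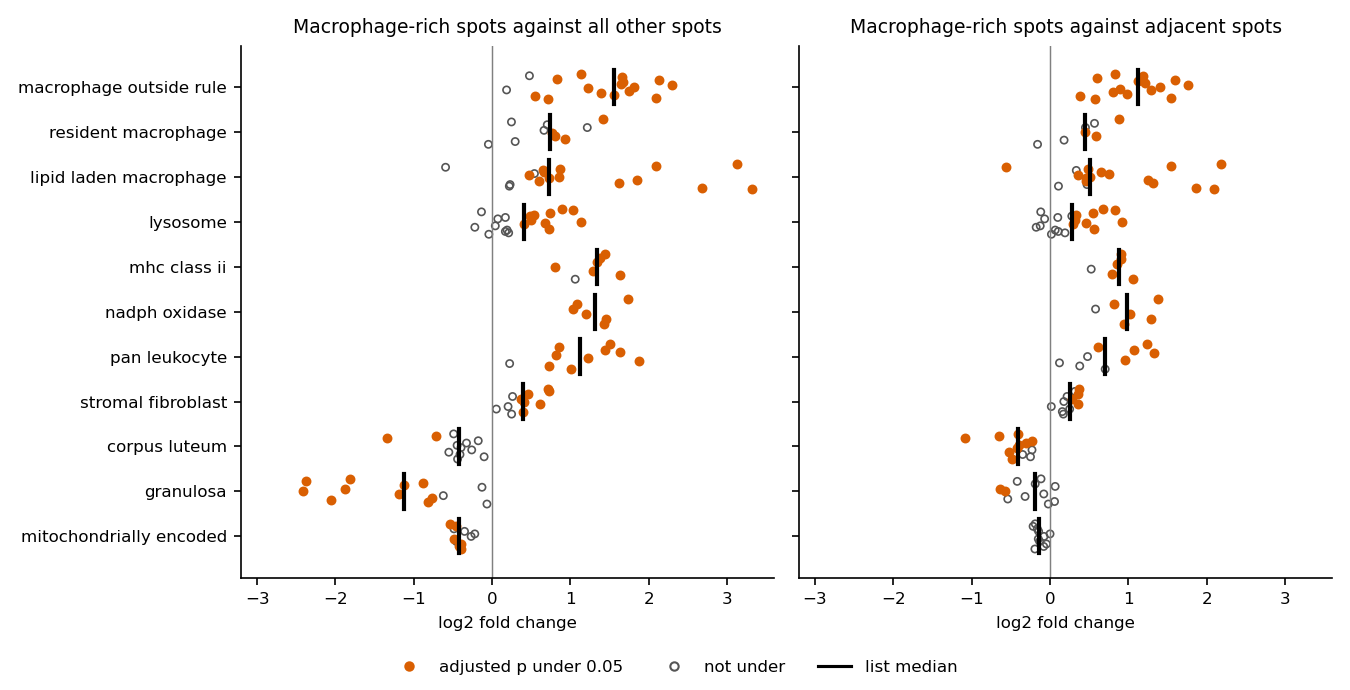
Log2 fold change of single genes in macrophage-rich spots, against all other spots and against the spots that touch them, by gene list; filled points passed the test (adjusted p under 0.05) and black bars are list medians. The 15 called macrophage genes outside the score lie above 0 in both comparisons, and granulosa genes lie below 0 mainly against all other spots.

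Aged and young macrophage-rich spots were compared with 3 aged and 4 young sections. Only Hba-a1, the alpha chain of haemoglobin (chr11:32283511-32284465), passed among 7353 genes (0.0136%), with 246 genes under an unadjusted p of 0.05. It had 63.9, 50.2 and 47.3 CPM in macrophage-rich spots of aged sections 1, 2 and 4 and 20.1, 6.18, 7.63 and 7.40 CPM in those of young sections, from 28, 47 and 32 UMIs against 5, 8, 3 and 2 UMIs. The ages did not overlap, and the log2 fold change was 2.66 ± 0.37 (edgeR quasi-likelihood, adjusted p = 0.0283).

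Hba-a1 stood higher in other spots of the same sections, at 125, 56.9 and 62.0 CPM in aged and 97.9, 31.1, 19.3 and 15.9 CPM in young sections. The erythrocyte list holds Hba-a1 and Hbb-bs themselves, so that its level is no separate line of evidence. In macrophage-rich spots it was at 192, 172 and 230.4 CPM in aged and 120.5, 34.8, 50.9 and 25.9 CPM in young sections. Hbb-bs, the beta chain, had a log2 fold change of 1.90 ± 0.35 for age and did not pass the same edgeR test (adjusted p = 0.142). Blood left in the tissue was not measured apart, and its part in the result was not tested. Hba-a1 has a near-identical copy that can share its reads. Its adjusted p was 0.0539 without area 3 and ran from 0.00435 to 0.214 with each section left out in turn, passing only without aged section 4 or young section 1. With a score without the C1q genes the log2 fold change was 1.25 and did not pass.

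With the capture area as a block, 19 genes passed, 16 of them higher and 3 lower in aged macrophage-rich spots. The higher ones included the immunoglobulin genes Igkc, Igha and Ighg2c, the complement genes C3 and C4b, Fabp4, Sfrp2, a modulator of Wnt signals, Wfdc17, a secreted protein of activated macrophages, Malat1, a nuclear long RNA, and 5 mitochondrially encoded genes. The lower ones were Serpina5, a protease inhibitor, Cyp17a1, the androgen-making enzyme of theca cells, and Prxl2a. This fit held 7 sections, but young section 3 had no aged partner in it, so that the age difference rested on the 3 areas with both ages. With a term for each area, few sections were left to estimate the spread. Without area 3 and without the block, 2 genes passed, Fabp4 and Serpina5.

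Wfdc17 had 262, 311 and 384 CPM in macrophage-rich spots of aged sections 1, 2 and 4 and 108, 153, 153 and 133 CPM in those of young sections, which did not overlap (1.29 ± 0.24; adjusted p = 0.142 with age alone and 0.0248 with the block). Serpina5 had 11.4, 8.54 and 13.3 CPM in aged and 169, 62.6, 33.1 and 222 CPM in young sections, again without overlap (-3.26 ± 0.59; adjusted p = 0.142 and 0.00118). Its level in other spots was 15.3, 7.83 and 17.7 CPM in aged and 70.2, 38.5, 14.2 and 64.5 CPM in young sections. Igkc, the kappa light chain, had 169, 3067 and 254 CPM in aged and 16.1, 37.1, 206 and 18.5 CPM in young sections, where young section 3 overlapped the aged range (adjusted p = 0.471 and 0.00118).

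None of the 13 macrophage genes outside the score, 17 lipid-laden, 19 lysosome, 6 MHC class II, 5 NADPH oxidase and 11 complement genes that could be tested differed between aged and young macrophage-rich spots with age alone (edgeR quasi-likelihood), although C3 and C4b passed with the block. Their medians were 0.31, 0.40, 0.15, 0.32, 0.09 and 0.13 on the log2 scale, against 0.000157 for all genes. MHC class I genes were not called either, with 10 of 10 above 0 and a median of 0.51. H2-D1 had 881, 709 and 1762 CPM in aged and 554, 323, 725 and 344 CPM in young macrophage-rich spots (1.30 ± 0.34; adjusted p = 0.858). The 10 mitochondrially encoded genes tested were above 0 as well (median 1.34) and not called with age alone, while 5 of them passed with the block. The list stood at 28491, 11778 and 9173 CPM in aged and 12575, 8418, 6186 and 4215 CPM in young sections.

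Levels of the leading genes overlapped between ages. Trem2 was at 107, 152 and 108 CPM in aged and 40.2, 103, 158 and 40.7 CPM in young macrophage-rich spots (0.55 ± 0.36). Mmp12 was numerically lower in aged spots, with the values given above (-1.36 ± 0.43; adjusted p = 1). Aged section 2 carried most of the B and plasma cell transcripts, at 5353 CPM, against 436 and 529 CPM in the other aged sections tested and 124.5, 119, 379 and 70.3 CPM in the young ones.

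**Figure D5:**
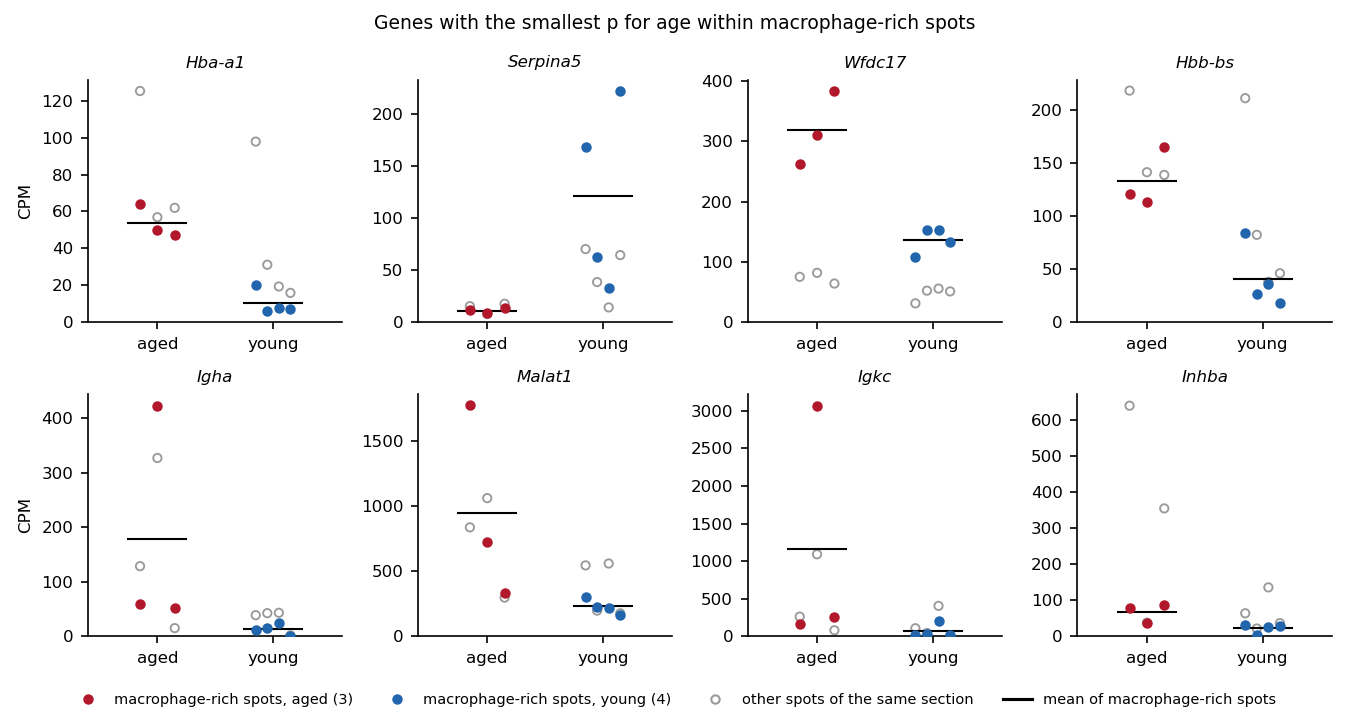
Level of 8 genes (CPM) per section, aged left of young, in macrophage-rich spots (filled, with the mean as a line) and other spots (open). Hba-a1 in macrophage-rich spots sits at 47.3 to 63.9 CPM in aged sections tested and 6.18 to 20.1 CPM in young sections, and at higher levels in other spots.

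Whether the age difference differed between macrophage-rich and other spots was tested by an interaction term. Of 12967 genes, 1 passed (0.00771%), the immunoglobulin heavy chain gene Ighg1, with 693 under an unadjusted p of 0.05. Ighg1 had 0, 232 and 14.8 CPM in macrophage-rich spots of aged sections 1, 2 and 4 and 0, 0.773, 0 and 0 CPM in those of young sections, against 0.216, 28.2 and 4.43 CPM in other spots of the aged and 0.361, 3.44, 9.03 and 1.94 CPM in other spots of the young sections. Aged section 2 held 217 of these UMIs and aged section 4 held 10. The interaction was 5.72 ± 0.85 on the log2 scale (edgeR quasi-likelihood, adjusted p = 0.0210), and without aged section 2 it was 4.69 (adjusted p = 0.100). The call was also lost without young section 2, 3 or 4. No gene passed once the capture area entered the fit as a block, and none without area 3.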

How the data were processed

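Spatial RNA was measured with the Visium assay on frozen ovary sections of 10 µm from aged and young CD-1 mice, 1 section per animal and 4 animals per age. The authors deposited unnormalized UMI counts for each gene in each spot: the values are whole numbers with totals that differ between spots. Array and pixel positions (other units) were also deposited. Space Ranger 1.2.1 and build mm10 are named per the submitters' processing notes. Neither the annotation nor the filters nor the use of strand is given in these sources, so that overlapping genes on opposite strands cannot be told apart.

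The tables held 32285 genes and 4191 spots; another 72 of 4263 spots over tissue had no column and were not used. Each area was split into its sections at the widest gap between spots, and the sides named in the labels gave the age, where the image was read with its first pixel row at the top and its first pixel column at the left. If an image had been rotated relative to the labels, the ages of that area would be swapped. Expression was not used. All spots with at least 1000 UMIs were scored. Members and gene lists were chosen with earlier results of these data known, and no support is drawn from patterns those results already showed.

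Counts were summed per section and spot class, for sections with at least 10 macrophage-rich spots, and CPM were taken from those sums. Genes were tested with edgeR 4.0.16 (R 4.3.3; limma 3.58.1; TMM scaling, filterByExpr, quasi-likelihood test, Benjamini-Hochberg threshold 0.05). The comparison of spot classes had the section as a block, the comparison of ages had age alone, and the interaction had sections and spot class. Standard errors were worked back from the test, as the size of the log2 fold change divided by the square root of the quasi-likelihood F statistic. Shares and rim distances were tested by exact permutation or sign-flip tests over sections (scipy 1.17.1). The steps were tested on simulated data with known changes. For the tests of genes, these data held no differences between sections beyond library size, so that they do not show how the tests deal with such differences.

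The labels put an aged and a young section on each capture area, which pairs them. Deviations from the age means correlated at 0.120, 0.312 and 0.154 across 7359 genes in areas 1, 2 and 4, and an alternative fit held the area as a block.

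Genes are named by list, or by the largest changes (the 12 highest and 8 lowest fold changes among genes with at least 20 CPM that passed and moved the same way in every section), or by the 8 smallest p-values for age and for the interaction. Fabp4, Sfrp2, C3, C4b, Ighg2c, Cyp17a1, Prxl2a, H2-D1, Trem2 and Mmp12 were named for age after their values were seen. Alternatives were other cuts, scores, UMI minimums, thinning, scaling, filters, DESeq2 1.42.0, adjacent spots as the comparison, and leaving out sections. The top 7% within sections and library-size scaling were added after seeing the data. Promoter windows came from RefSeq (GRCm38.p6) and gene positions from the GENCODE annotation of mm10. The precision of the age comparison depends on the UMIs summed over macrophage-rich spots. These were 438309, 936785 and 677199 in aged sections 1, 2 and 4 and 248981, 1294432, 393286 and 270226 in young sections 1 to 4. Over all their spots, aged sections held fewer UMIs than young ones. Animals are the replicates, with 1 section each, so that differences between animals and between sections cannot be told apart. The p-values for age measure this joint spread. Those for spot classes measure how the difference within a section varied between sections.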

Additional observations from a re-analysis of the deposited data

Results flagged for a closer look

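Of 153 groups of 4 sections tested, 19 held 1 section far from the others. All 19 were measures of young sections in their macrophage-rich spots. Levels of genes and lists were tested only there, so that most of the 153 groups were of this kind. The rest were shares, scores and UMIs of aged or young sections, so that the flags do not compare the ages. Chance flags about 1 in 20 where measures are independent. Here the measures share sections and genes, so that the count cannot be compared with that rate. Young section 3 was the high one in most of these, and its side of area 3 is uncertain as described above. There the adipocyte genes stood at 333 CPM (133 to 137 CPM in the other young sections), the surface epithelium genes at 234 CPM (48.1 to 53.3 CPM), Ssu2 at 158 CPM and the stromal receptor Pdgfra at 216 CPM. Fabp4 stood at 178 CPM, Stab1 at 252 CPM, Sfrp2 at 25.4 CPM, Kcnj16 at 17.8 CPM and Aldoc at 15.3 CPM in that section. Its immunoglobulin genes were high as well, with Igkc at 206 CPM and Ighg2c at 35.6 CPM.

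Young section 1 was low for the lysosome genes (8993 CPM against 12852 to 13127 CPM in the other young sections), the corpus luteum genes (19744.5 CPM against 35112 to 37013.5 CPM) and Ccl9 (12.05 CPM). It was high for Car14 (52.2 CPM), Slc38a3 (32.1 CPM) and Hba-a1 (20.1 CPM). Young section 4 was high for Cd74 (2157 CPM), and young section 2 was the only young section with Ighg1 in macrophage-rich spots (0.773 CPM).

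The age difference of Ighg1 differed between macrophage-rich and other spots by 5.72 on the log2 scale in the edgeR interaction test (adjusted p = 0.0210, 3 aged and 4 young sections). Without aged section 2 it was 4.69 (adjusted p = 0.100), and the adjusted p ran from 0.000249 to 0.441 with each section left out in turn. Immunoglobulin genes share reads, so that its single value is uncertain.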

How the results depend on the processing

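The direction of the share held in every alternative, with differences of 3.25 to 8.64 percentage points and 3.91 to 8.44 with each section left out in turn. No alternative passed, with p = 0.375 in the exact sign-flip test with the replicate block. With 1 section left out, without area 3 and with the block, the exact tests could not go below 0.0571, 0.1 and 0.125. Those runs could not have passed, so that their side of the threshold carries no information. Genes differing between spot classes numbered 794, of which 57.4% were higher, against 1185 with 34.4% higher with no filter on low counts, 950 with a score without Lyz2, 456 with a score without C1q genes, 384 against adjacent spots, 525 without area 3 and 499 to 849 with each section left out. Of 87 genes named in that comparison, 83 passed, 54 of them under every alternative in which they could be tested. Of those that could be tested against adjacent spots, 10 no longer passed there. Age genes within macrophage-rich spots numbered 1, against 19 with the replicate block (capture area), 83 with no filter on low counts, 5 with DESeq2, 2 without area 3 and 2 after thinning, and 0 with library-size scaling, with at least 20 macrophage-rich spots per section, with the top 7% within sections, with the top 10%, without Lyz2 or without C1q genes in the score. Leaving out sections in turn gave 0 to 7. Hba-a1 had a log2 fold change of 1.25 with the score without C1q genes and 2.98 at most. The interaction gave 1 gene, against 8 with DESeq2, 64 with no filter, 2 against adjacent spots, 0 with the replicate block, with at least 20 spots, without area 3 or with the top 7% within sections, and 0 to 64 with each section left out, 64 of them without aged section 2. Ighg1 was among the genes with no filter. It was not among those with DESeq2, against adjacent spots or without aged section 2. The rim distance was -0.167 spacings without aged section 2, 0 without C1q genes in the score, and -0.167 to 0.583 over sections left out. The causes were not tested. Of the 289 macrophage-rich spots, 50.2% were also chosen by the score after thinning, 68.9% by the score without Lyz2 and 81.7% by the score without C1q genes. Counts behind the age comparison were low for many genes: Hba-a1 rested on 2 to 8 UMIs per section in young macrophage-rich spots.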
